A study of Mus musculus with 24 samples.

Results

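The 38 genes described here are imprinted genes of the mouse, taken from a list of known members of 8 imprinted clusters and of 9 genes outside them. They were found on the array through the accession or symbol that each probe carries. The list was chosen with earlier results of these data known, so its shares are set beside those of all genes as description only. Of the 38, 37 had a usable probe among 20623 named genes, and Rian, a maternally expressed noncoding RNA, had none. Of the 37, 25 were well above background, as called by the scanner software, on all 24 arrays. Rtl1 and Zim1 were so on 0 arrays, Rasgrf1 on 2, Usp29 on 3 and Nap1l5 on 6.

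Expression was measured on 24 one-colour arrays, 2 for each of 12 groups of mouse cells or tissue. Genotype and strain are not given in the sources used here. Epiblast stem cells (EpiSCs) are pluripotent lines derived from the epiblast of the implanted embryo, while mESCs (mouse embryonic stem cells) come from the blastocyst, before implantation. EpiSC lines Wt1 and 129C1 were made by the original protocol. Lines 129Ba1, 129Ba2 and BNa17 were made in the presence of a Wnt inhibitor. A further group was 129C1 treated with IWP2, a compound that stops cells from releasing Wnt proteins. Of the mESC lines, J1 and R1 were grown in conventional medium, and J1 also in 2i, which combines inhibitors of the kinases Mek and Gsk3. Tissue dissected by hand from embryos gave the groups E5.5 and E6.5, both epiblast, and E7.5, embryonic ectoderm, named for the days after fertilisation. All cell lines were grown on feeder cells, from which they were separated before RNA was taken. The name Wt1 below means the line, which is not the gene of that name.

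An imprinted gene is transcribed from the maternal or the paternal chromosome only, according to DNA methylation that was laid down in the egg or the sperm at imprinting control regions. Several imprinted genes lie together under 1 control region, and a long noncoding RNA of one parental chromosome often silences protein-coding neighbours on it. Imprinted genes regulate growth of the embryo and placenta, and pluripotent cells in culture are known for unstable imprints. The arrays measured RNA of both chromosomes together, so no value here says which allele was transcribed.

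Levels are given as log2 of the processed signal relative to the 75th percentile of each array, which is set to 0. The signal at that percentile ranged from 69.3 on BNa17 replicate 1, the dimmest array, to 253 on E6.5 replicate 1. Between 36.7% and 53.2% of the probes passed as well above background. Replicate arrays correlated at r = 0.966 to 0.989. The labels were checked with Pou5f1, a gene of all pluripotent cells, which was 4.88 to 7.09 on the 24 arrays, and with Zfp42, a gene of mESCs, which was 6.44 to 7.70 in the mESC groups and at most -0.38 on any EpiSC array. Fgf5, a gene of the implanted epiblast, was 2.16 to 5.06 on the EpiSC arrays. Of 21 markers of feeder fibroblasts, 20 or 21 were well above background on both arrays of every cell line group and 8 to 11 in the embryonic groups. Of 11 markers of visceral endoderm, the tissue that wraps the epiblast, 10 were so at E5.5, where their summed level was 3.31 on replicate 1 and 6.61 on replicate 2. Whether the 2 arrays of a group stem from separate cultures or embryos is not stated, so p-values measure only the spread between these samples, which may be technical.

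**Figure D1:**
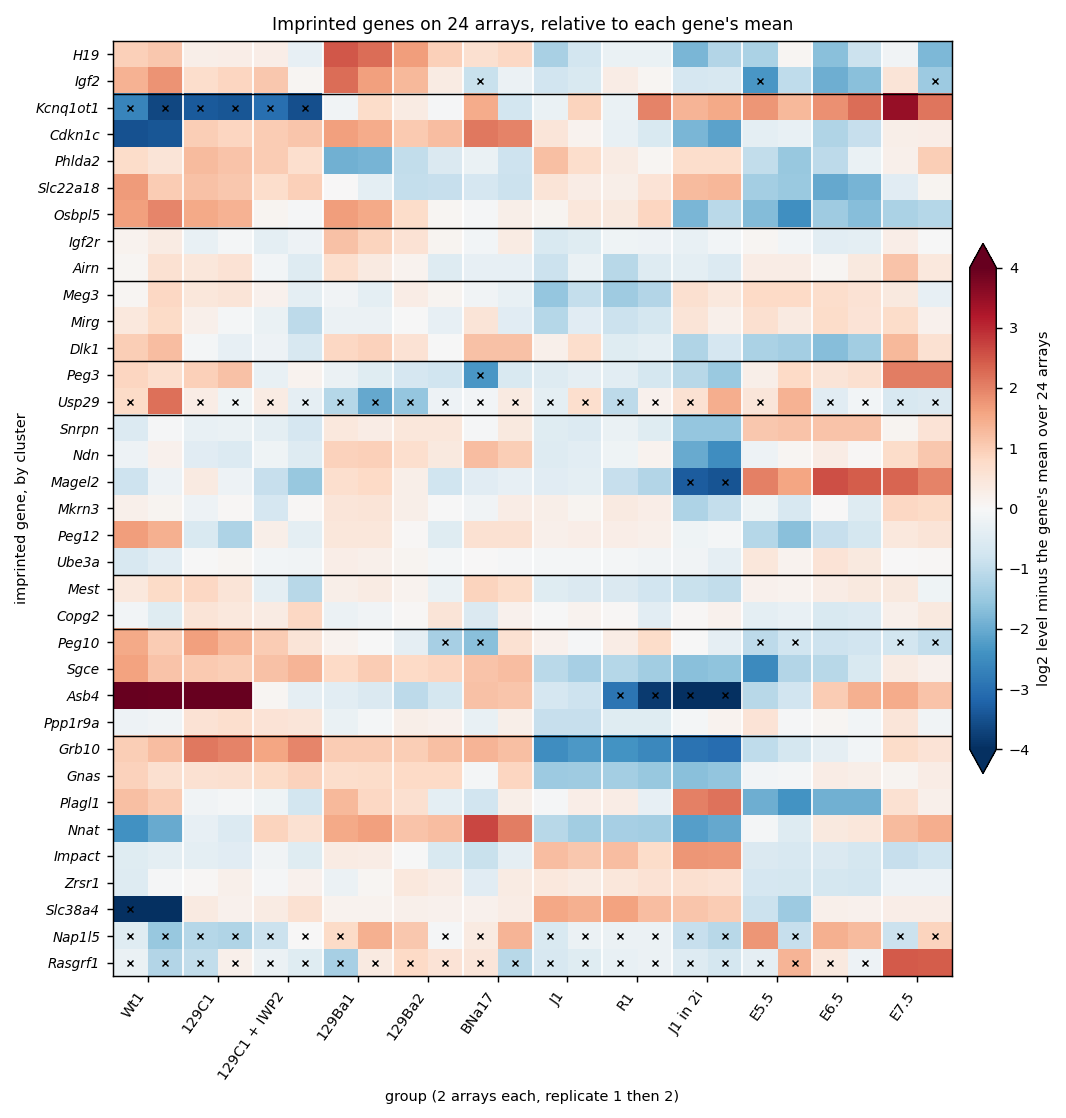
Heat map of 35 imprinted genes (rows, grouped by cluster with black lines between clusters) on 24 arrays (columns, 2 per group). Colour gives the log2 level minus the gene's mean over the 24 arrays, and a cross marks a value not well above background. Kcnq1ot1 carries crosses on all arrays of Wt1, 129C1 and 129C1 with IWP2. Asb4 is highest in Wt1 and 129C1.

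The promoters of the genes whose levels differed most between EpiSC lines are shown first, because the DNA methylation that marks an imprint sits on the dinucleotide CG. RefSeq (GRCm38.p6) gave promoter sequences for 32 of the 38 genes. It gave none for Cdkn1c, H19, Impact, Peg10, Sgce and Rtl1. The 250 bases before the transcription start are printed 5' to 3' on the gene's strand, with each CG in capitals. Where RefSeq lists several starts, the most upstream is shown.

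Kcnq1ot1: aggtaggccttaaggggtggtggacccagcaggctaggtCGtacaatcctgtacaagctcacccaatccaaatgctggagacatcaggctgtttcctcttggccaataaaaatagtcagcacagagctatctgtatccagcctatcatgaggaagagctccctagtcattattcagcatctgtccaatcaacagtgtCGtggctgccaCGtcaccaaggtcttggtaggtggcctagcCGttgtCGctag
Asb4: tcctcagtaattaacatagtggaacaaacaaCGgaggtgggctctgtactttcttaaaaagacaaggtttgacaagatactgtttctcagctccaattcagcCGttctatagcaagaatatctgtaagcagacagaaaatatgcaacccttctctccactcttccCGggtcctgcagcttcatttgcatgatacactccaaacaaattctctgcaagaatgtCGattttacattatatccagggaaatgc
Slc38a4: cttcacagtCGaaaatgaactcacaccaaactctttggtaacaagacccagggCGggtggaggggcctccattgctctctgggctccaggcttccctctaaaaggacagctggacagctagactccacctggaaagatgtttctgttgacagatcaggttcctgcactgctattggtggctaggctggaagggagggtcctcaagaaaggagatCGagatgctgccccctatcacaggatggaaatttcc
Nnat: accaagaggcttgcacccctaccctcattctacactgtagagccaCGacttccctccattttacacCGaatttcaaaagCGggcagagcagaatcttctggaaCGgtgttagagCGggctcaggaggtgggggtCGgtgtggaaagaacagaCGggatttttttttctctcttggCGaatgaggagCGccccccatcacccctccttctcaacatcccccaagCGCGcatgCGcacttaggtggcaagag

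The Kcnq1ot1 window (chr7:143296548-143296797, minus strand) held 5 CG and the Asb4 window (chr6:5383136-5383385, plus strand) 4. The Slc38a4 window (chr15:97055957-97056206, minus strand) held 3 and the Nnat window (chr2:157559828-157560077, plus strand) 12. The median was 8 over 51 windows of the imprinted genes and 6 over all 32851 promoter windows of this length. TGCCGC, the letters bound by the imprint protein Zfp57, was searched on both strands. It was present in 8 of the 51 windows (15.7%), those of Copg2, Meg3, Mest, Nap1l5, Osbpl5, Plagl1 and Zim1, and in 8.68% of all windows. None of the 4 windows printed holds it. Methylation was not measured here.

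The first comparison asked how far imprinted genes varied between the 5 untreated EpiSC lines. A gene was called when limma's F test over the lines gave an adjusted p below 0.05 and the highest and lowest line mean differed at least 2-fold. Of 34 imprinted genes tested, 20 were called (58.8%), against 28.9% of all 15092 genes tested. The share of all genes rested on single lines and arrays: of 4356 called, 2892 were called without line Wt1 and 6540 without BNa17 replicate 2. The median range between line means was 1.38 on the log2 scale for the imprinted genes and 0.86 for all genes. Of 12 maternally expressed genes tested 7 were called, and of 20 paternally expressed genes 12. All 5 genes of the Kcnq1ot1 domain were called.

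Kcnq1ot1 is the paternally expressed noncoding RNA that silences its maternally expressed neighbours on the same chromosome. On the arrays of Wt1 its level was -4.97 and -5.98, and on those of 129C1 -5.67 and -5.75, in each case not well above background. In the lines made with a Wnt inhibitor it was -2.46 and -1.59 (129Ba1), -1.99 and -2.37 (129Ba2), and -0.84 and -3.05 (BNa17). The original-protocol lines and the Wnt inhibitor lines did not overlap (F test adjusted p = 6.28e-04). How many of all genes show no overlap was not counted, here or below. The call was lost when the background was corrected by normexp, a model of signal over local background (adjusted p = 0.0662). A constant was added to each normexp value, which by itself shrinks the log2 differences of dim probes. A second probe of the gene was well above background on 0 arrays of each EpiSC line.

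Cdkn1c, a maternally expressed inhibitor of the cell cycle, was -0.87 and -0.81 in Wt1. It was 3.60 and 3.48 in 129C1, 4.24 and 4.10 in 129Ba1, 3.66 and 3.86 in 129Ba2, and 4.71 and 4.60 in BNa17. Line Wt1 thus lay apart from the other 4 lines, with a 45.2-fold range between line means (adjusted p = 9.28e-11). Without Wt1 the range was 1.12 on the log2 scale, and the gene was still called. Both arrays of Wt1 were well above background, so Cdkn1c was detected there.

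The other 3 members of the domain are also maternally expressed. Phlda2, which restrains growth of the placenta, was 1.96 and 1.76 in Wt1, 2.50 and 2.39 in 129C1, and -0.67 to 0.97 on the 6 arrays of the Wnt inhibitor lines (adjusted p = 1.63e-05). Without 129Ba1, the lowest line, its range fell from 3.10 to 1.99. Slc22a18, a membrane transporter, was 1.84 and 1.15 in Wt1, 1.30 and 1.22 in 129C1, and -0.80 to 0.15 in the Wnt inhibitor lines (adjusted p = 3.07e-06). Neither gene overlapped between the original-protocol and the Wnt inhibitor lines. Osbpl5, of a family of lipid transfer proteins, was 3.03 to 3.59 in Wt1, 129C1 and 129Ba1 and 1.60 to 2.37 in 129Ba2 and BNa17 (adjusted p = 5.96e-04).

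Asb4, a maternally expressed adaptor of ubiquitin ligases in the Peg10 domain, was 3.96 and 3.84 in Wt1 and 4.13 and 4.01 in 129C1. It was -0.53 and -0.66 in 129Ba1, -1.15 and -0.79 in 129Ba2, and 1.07 and 1.02 in BNa17. The range between line means was 32.9-fold (adjusted p = 3.74e-09), and on a second probe it was 2.43 on the log2 scale with the same highest and lowest line. The summed level of 10 markers of mesoderm and definitive endoderm was 6.43 to 7.13 on the arrays of Wt1 and 129C1, and 4.13 to 5.62 on those of the Wnt inhibitor lines. Of these markers 9 in Wt1, 8 in 129C1 and 1 or 2 in each Wnt inhibitor line were well above background on both arrays. Their part in the level of Asb4 was not tested. In bulk RNA a change in the number of cells of a type and a change in RNA per cell cannot be told apart.

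Peg10, a paternally expressed gene derived from a retrotransposon, was -1.16 and -1.65 in Wt1 and -1.03 and -1.33 in 129C1. It was -4.33 to -2.05 in the Wnt inhibitor lines, where it was not well above background on 129Ba2 replicate 2 and BNa17 replicate 1 (adjusted p = 0.00443). With the normexp correction the range fell below 2-fold. Sgce, a sarcoglycan gene that shares the Peg10 promoter region, and Ppp1r9a, a scaffold protein of neurons, did not pass (ranges 0.55 and 0.79, adjusted p = 0.499 and 0.0341, the second under 2-fold).

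Among the imprinted genes outside the clusters, Slc38a4 and Nnat were lowest in Wt1, and Slc38a4 stood apart there. Slc38a4, a paternally expressed amino acid transporter, was -3.65 and -3.44 in Wt1, where 1 of 2 arrays was well above background. Its 8 values in the other 4 lines lay between 1.13 and 1.35, a span smaller than the distance to Wt1 (adjusted p = 3.38e-10). Without Wt1 the range was 0.13 and the call was lost (adjusted p = 0.913). Nnat, a paternally expressed membrane protein of neurons, was -1.42 and -1.01 in Wt1, 0.68 and 0.46 in 129C1, 2.53 and 2.65 in 129Ba1, 2.16 and 2.26 in 129Ba2, and 3.68 and 3.06 in BNa17. Its range was 23.9-fold (adjusted p = 7.71e-09), with a range of 4.67 on the log2 scale on a second probe. The lines were spread along this range, with Wt1 at -1.21, 129C1 at 0.57 and BNa17 at 3.37. Without Wt1 the range was 2.79 and still called.

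**Figure D2:**
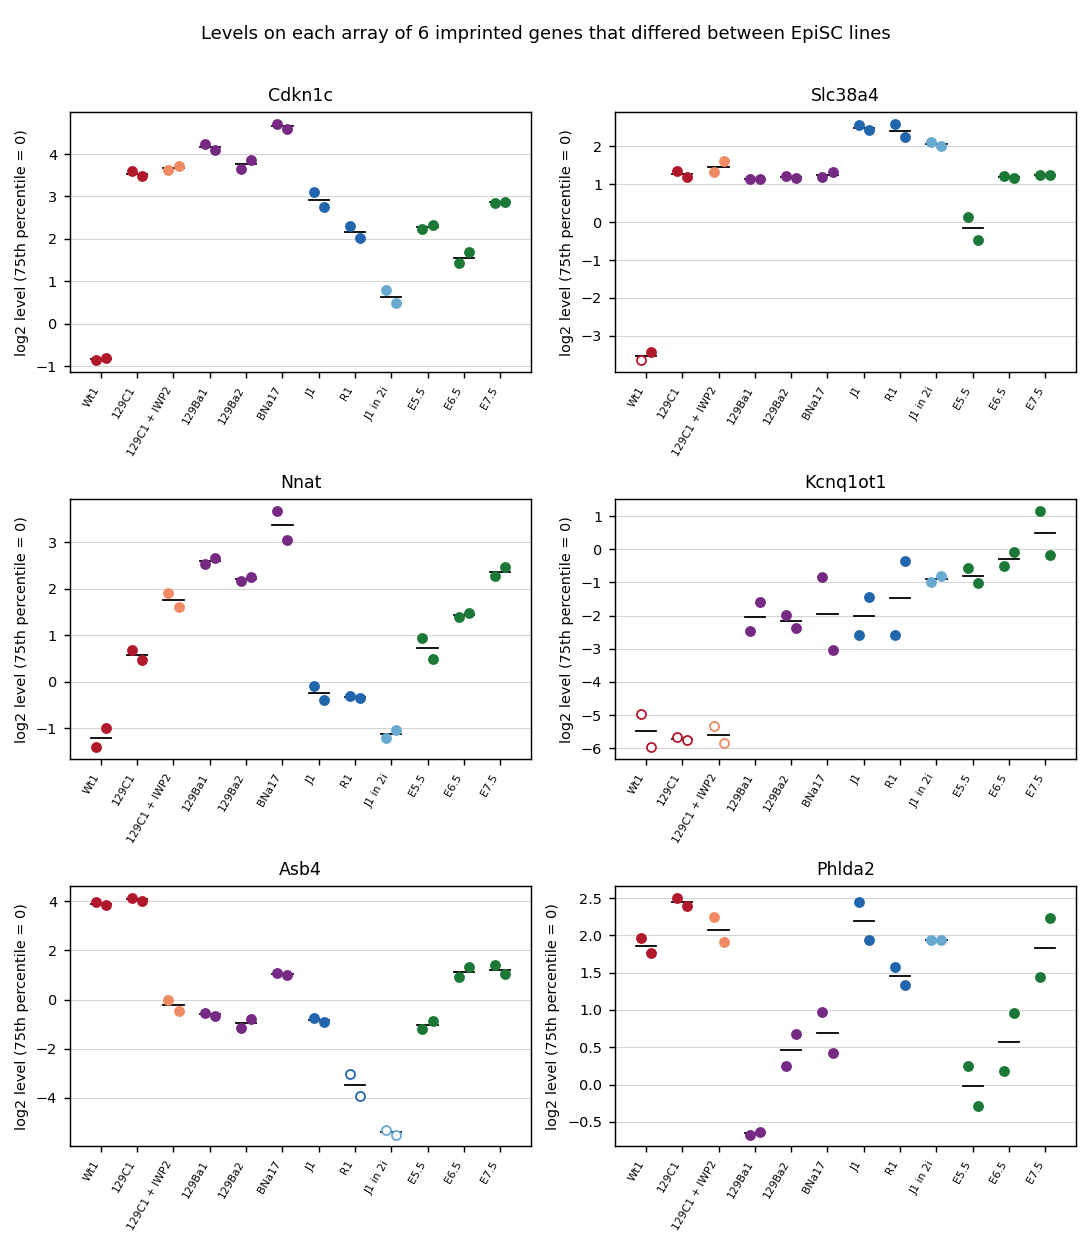
Log2 level on each array (y axis, 75th percentile of the array at 0) of Cdkn1c, Slc38a4, Nnat, Kcnq1ot1, Asb4 and Phlda2 in the 12 groups (x axis). Filled points are well above background, open points are not, and a bar is the mean of 2 arrays. Cdkn1c at -0.84 and Slc38a4 at -3.54, the means of Wt1, lie below every other group.

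Grb10, an adaptor that restrains growth factor signalling and is expressed from different alleles in different tissues, was 4.28 and 4.16 in 129C1. It was 3.14 to 3.53 on the 8 arrays of the other lines (adjusted p = 0.00103). The call was lost without 129C1 (range 0.28, adjusted p = 0.548), without 129C1 replicate 1 and without 129Ba1, the last 2 through the fold minimum alone. Plagl1, a paternally expressed zinc finger protein that regulates a network of imprinted genes, was 0.64 to 2.71 (range 1.39, adjusted p = 0.00975), with a range of 0.97 when all 4 of its probes were averaged. Nap1l5, a nucleosome assembly gene, was called with a range of 2.26 (adjusted p = 0.0380), but 3 of the 10 EpiSC arrays were well above background and the call was lost in 8 of 15 leave-outs of an array or a line. Gnas, Impact, Zrsr1 and Rasgrf1 did not pass.

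In the Snrpn domain, whose human counterpart underlies Prader-Willi and Angelman syndromes, 3 of 6 genes were called. Ndn, a paternally expressed growth suppressor, was -0.13 to 0.59 in Wt1 and 129C1 and 0.81 to 1.67 in the Wnt inhibitor lines, with no overlap (adjusted p = 1.08e-04). Peg12, a paternally expressed regulator of Gsk3, was 1.37 and 1.12 in Wt1, -0.91 and -1.56 in 129C1, and -0.79 to 0.31 elsewhere (adjusted p = 2.56e-05). Without Wt1 its range fell from 2.48 to 1.54. Magel2, a paternally expressed ubiquitin ligase regulator, had a range of 1.25 (adjusted p = 0.0235), and lost the call without 129Ba1 (adjusted p = 0.437) or either of its arrays (0.0885 and 0.128). Snrpn, a splicing factor, and Ube3a, the maternally expressed ubiquitin ligase, had adjusted p = 0.00886 and 0.00427 with ranges of 0.74 and 0.75, under 2-fold.

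Peg3, a paternally expressed zinc finger protein, was 0.16 to 0.68 in Wt1 and 129C1 and -2.81 to -0.74 in the Wnt inhibitor lines, with no overlap (range 2.52, adjusted p = 3.85e-04). BNa17 replicate 1 was not well above background. On a second probe the range was 1.54. Its neighbour Usp29 was not tested, since it was not well above background on both arrays of any group.

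H19, Igf2, Igf2r and Dlk1 are described beside the feeder markers, which also varied between lines. H19, a maternally expressed noncoding RNA, was highest in 129Ba1 (6.73 and 6.49) and lowest in 129C1 (4.49 and 4.51), with 5.19 and 5.34 in Wt1, 5.93 and 5.21 in 129Ba2, and 4.88 and 5.07 in BNa17. Its range was 2.11 (adjusted p = 0.0258), and 2.19 to 2.35 on its 4 other probes. The call was lost in 6 of 15 leave-outs, those of 129C1, of 129Ba1 and of each of their arrays (adjusted p = 0.0657 to 0.335).

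Igf2, the paternally expressed growth factor, was 0.50 and -0.10 in 129Ba1, -0.36 and 0.05 in Wt1, and -2.64 and -1.97 in BNa17, the first of these not well above background. Its range was 2.50 (adjusted p = 0.0148), lost without BNa17 (adjusted p = 0.202) or its replicate 1 (0.0843). Igf2r, the maternally expressed receptor that clears Igf2, was 3.68 and 3.38 in 129Ba1 and 2.20 to 3.08 in the other lines (adjusted p = 0.00156). That call was lost without 129Ba1 (adjusted p = 0.143) and without 129C1, the lowest line, where the range fell to 0.93. Airn, the noncoding RNA that silences Igf2r, did not pass (range 0.84, adjusted p = 0.0647).

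Dlk1, a paternally expressed ligand related to those of Notch, was 1.14 and 0.88 in 129C1 and 1.19 to 2.46 in the other lines (range 1.37, adjusted p = 0.00252, and 0.0606 without 129C1). The maternally expressed RNAs of the same cluster, Meg3 and Mirg, did not pass (adjusted p = 0.0822 and 0.213). Beside these values, the summed level of the feeder markers was 9.34 and 9.10 in 129Ba1, 9.29 and 8.39 in BNa17, 8.64 and 8.05 in 129Ba2, 7.98 and 8.42 in Wt1, and 7.77 and 8.03 in 129C1. H19 and the feeder markers were thus both lowest in 129C1 and highest in 129Ba1, while Igf2 was lowest in BNa17. The part of feeder RNA in these levels was not tested.

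**Figure D3:**
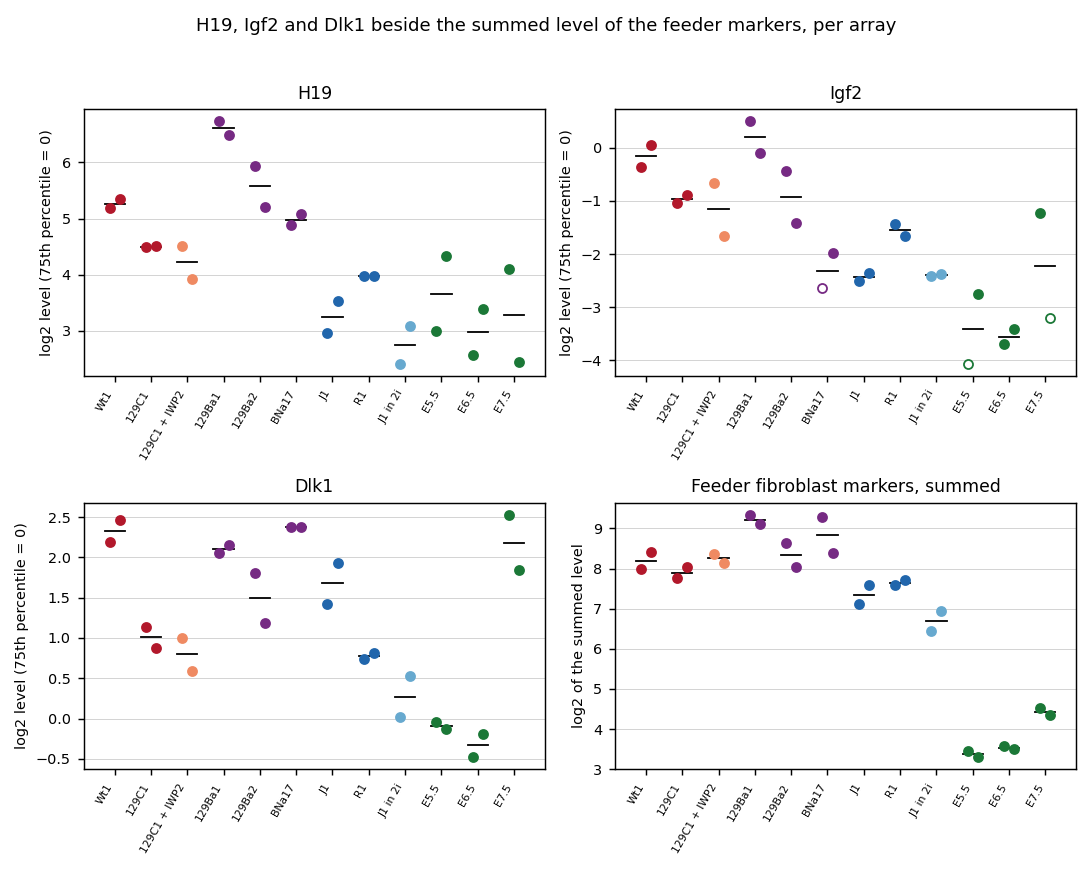
Log2 level of H19, Igf2 and Dlk1 and log2 of the summed level of 21 feeder fibroblast markers (y axes) on the 2 arrays of each of 12 groups (x axis). Filled points are well above background, open points are not, and a bar is the mean. The summed feeder markers lie at 6.46 to 9.34 in the cell lines and at 3.30 to 4.52 in the embryonic groups.

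The second comparison set the means of the 3 lines made with a Wnt inhibitor against those of the 2 original-protocol lines, with the line as the replicate. Of 32 imprinted genes tested, 1 was called higher and 2 lower, where 0.534% of all genes were higher and 1.04% lower. The count of all genes called, 221, was 40 to 87 without 129Ba1, 129Ba2 or BNa17, 95 without BNa17 replicate 2 and 622 without 129C1. Kcnq1ot1 was at least 3.93-fold higher in the Wnt inhibitor lines (adjusted p = 0.00455), a bound because none of the 4 original-protocol arrays was well above background. It passed the filter here only through the Wnt inhibitor lines, the side where it is high, so its call sets background against those lines. The bound sets the mean of the bright side against a floor on the dim side: the lowest signal on the array that still passed as well above background, or the probe's signal where that was higher. The call held in each leave-out and was lost with normexp (difference 0.78, adjusted p = 0.0918).

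Slc22a18 differed by -1.87 ± 0.28 (± SE, adjusted p = 0.0498) and Asb4 by -4.16 ± 0.61 (adjusted p = 0.0470), both just under the threshold. Slc22a18 lost its call in 13 of 15 leave-outs (adjusted p = 0.0539 to 0.186) and Asb4 in 11 of 15 (0.0529 to 0.142). Asb4 differed by -1.97 on its second probe. Phlda2 differed by -1.99 ± 0.46, Peg3 by -1.76 ± 0.36 and Nnat by 3.04 ± 0.61, which did not pass (adjusted p = 0.127, 0.103 and 0.0977) but did with normexp (0.0389, 0.0315 and 0.0299). Cdkn1c, Nnat and Slc38a4 were called higher when 129C1 was left out, which sets the Wnt inhibitor lines against Wt1 alone. Wt1 lay on another slide than the other 4 lines.

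IWP2, the third comparison, asked what blocking Wnt secretion did in 129C1. Of 34 imprinted genes tested, 1 rose and 4 fell, where 1.39% of all genes rose and 2.48% fell. Asb4 went from 4.13 and 4.01 to -0.01 and -0.45, a 19.7-fold fall (-4.30 ± 0.26, adjusted p = 1.62e-07, and -2.40 on its second probe). The treated values lie within the range of the Wnt inhibitor lines. The summed markers of mesoderm and definitive endoderm went from 6.90 and 7.13 to 5.21 and 5.42, with 8 of 10 markers well above background on both arrays before and 1 after. Their part in the fall of Asb4 was not tested.

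Mest, a paternally expressed gene of mesoderm with a hydrolase-like protein, fell by 1.41 ± 0.23 on the log2 scale, from 5.29 and 4.97 to 4.06 and 3.37 (adjusted p = 0.00137). Osbpl5 fell by 1.43 ± 0.29 (adjusted p = 0.00715) and Magel2 by 1.28 ± 0.31 (adjusted p = 0.0247). Both calls were lost without IWP2 replicate 2 (adjusted p = 0.0606 and 0.245) and without 129C1 replicate 1 (0.0635 and 0.251). Nnat rose from 0.68 and 0.46 to 1.90 and 1.61 (1.18 ± 0.21, adjusted p = 0.00310, and 1.14 on its second probe).

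Kcnq1ot1 was not well above background on either array after IWP2 (-5.33 and -5.85), as before it, so no fold is given. Cdkn1c, Phlda2 and Slc22a18 differed by 0.13 ± 0.16, -0.37 ± 0.31 and -0.30 ± 0.23 and did not pass (adjusted p = 0.768, 0.619 and 0.574). H19 differed by -0.28 ± 0.50 (adjusted p = 0.862), with summed feeder markers of 8.36 and 8.15 after IWP2. Slide and treatment cannot be told apart, since no slide held both groups. This comparison shares the 129C1 arrays with the 2 before it.

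The fourth comparison set the 5 EpiSC lines against the mESC lines J1 and R1. Of 32 imprinted genes tested, 6 were higher in EpiSCs and 1 lower, where 12.9% of all genes were higher and 12.1% lower. Counted without J1 or without R1, 3 imprinted genes and 1943 or 2004 of all genes were called, against 7 and 3619 with both. Grb10 was 3.14 to 4.28 on the 10 EpiSC arrays and -0.40 to -0.13 on the 4 mESC arrays, a 13.4-fold difference (3.74 ± 0.30, adjusted p = 1.94e-04). Gnas, which encodes the stimulatory G protein subunit and has maternal, paternal and biallelic transcripts, was 5.78 to 6.80 and 4.34 to 4.50 (2.10 ± 0.18, adjusted p = 2.39e-04). Sgce was 1.14 to 1.95 and -1.05 to -0.72 (2.30 ± 0.20, adjusted p = 2.61e-04). For each of these 3 genes the EpiSC and mESC arrays did not overlap, a trait not counted over all genes. Their calls held in all 21 leave-outs.

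The remaining calls were less stable. H19 was 1.77 ± 0.53 higher (adjusted p = 0.0362), with 1.18 to 1.75 on its other probes. Its call was lost without Wt1, 129Ba2, J1 or R1 (0.0515 to 0.231), and the feeder markers summed to 7.12 to 7.71 on the mESC arrays against 7.77 to 9.34 on the EpiSC arrays. Meg3 was 1.39 ± 0.26 higher (adjusted p = 0.00667), but its other 2 probes differed by 0.29 and 0.38, and the call was lost without J1 or R1 (0.0574 and 0.0594). Mest was 1.05 ± 0.26 higher (adjusted p = 0.0188), 1.25 and 1.27 on its other probes, and lost its call without 129C1 or BNa17 through the fold minimum and without J1 or R1 (0.0978 and 0.131).

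Impact, a paternally expressed regulator of translation, was lower by 1.36 ± 0.27 (-1.36, adjusted p = 0.00768), lost without J1 or R1 (0.0750 and 0.0533), and a second probe differed by 0.59 in the opposite direction. Mirg differed by 0.85 ± 0.25 (adjusted p = 0.0320), under 2-fold. Cdkn1c, Slc38a4 and Nnat, which were lowest in Wt1 among the EpiSC lines, had standard errors of 1.14 to 1.39 here and did not pass. EpiSC and mESC lines lay on different slides, so slide and cell type cannot be told apart, and a random slide block left the same 7 genes called. When arrays were scaled on probes well above background everywhere, the median of all genes moved from -0.01 to 0.26 and the higher share of all calls from 51.5% to 68.5% (38.3% with normexp).

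Within the mESC lines, R1 and J1 differed in 1 of 34 imprinted genes, Asb4, where 0.278% of all genes were lower in R1 and 0.252% higher. Asb4 was -0.77 and -0.92 in J1 and not well above background in R1 (-3.03 and -3.93), at least 4.39-fold lower (adjusted p = 2.05e-04). The call was lost with normexp, through the fold minimum, and when its 2 probes were averaged (adjusted p = 0.125). Of all genes 80 were called, and 134 to 218 without J1 replicate 2 or either array of R1. Between 129Ba2 and 129Ba1, the pair of lines on 1 slide, limma called 0 of 34 imprinted genes, where 0.391% of all genes were higher and 0.802% lower in 129Ba2. At an unadjusted p under 0.05 there were 11. Osbpl5 was called lower in 129Ba2 with normexp and with quantile normalization, and Osbpl5 and Magel2 without 129Ba2 replicate 1. Of all calls 32.8% were higher, 11.96% with normexp and 22.04% with quantile normalization. The count of all genes there, 180, was 17 without 129Ba1 replicate 1, 39 without 129Ba2 replicate 2 and 521 without 129Ba2 replicate 1.

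The 2i medium was compared with conventional medium in J1. Of 34 imprinted genes tested, 3 rose and 8 fell, where 6.04% of all genes rose and 7.00% fell. The median difference was -0.30 for the imprinted genes and -0.05 for all genes. In the Snrpn domain all 6 genes had values below 0, and 4 were called. Magel2 went from -0.49 and -0.42 in J1 to -3.37 and -3.49 in 2i, not well above background there, at least 7.89-fold lower (adjusted p = 2.08e-05). Ndn went from -0.09 and 0.01 to -1.58 and -2.06 (-1.78 ± 0.21, adjusted p = 4.88e-05). Mkrn3, a paternally expressed gene with a ring finger, fell by 1.26 ± 0.25 (adjusted p = 0.00225), and by 1.00 on a second probe. With normexp Mkrn3 differed by -0.38 and was not called (adjusted p = 0.0724). Snrpn fell by 1.02 ± 0.19 (adjusted p = 0.00155). Its difference was under the fold minimum without J1 replicate 1 (-0.99) and with normexp (-0.98). The same held with quantile normalization (-0.93), scaling on probes well above background (-0.92) and the mean of its probes (-0.80).

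Outside that domain, Asb4 was at least 9.25-fold lower in 2i (adjusted p = 9.13e-08), from -0.77 and -0.92 to -5.30 and -5.49. A second probe, well above background on 0 arrays of J1 and 1 of 2i, differed by 3.17 in the opposite direction, and the mean of both probes was not called (adjusted p = 0.127). Cdkn1c went from 3.09 and 2.75 to 0.78 and 0.49, a 4.88-fold fall (-2.29 ± 0.16, adjusted p = 6.22e-07). Osbpl5 fell by 1.72 ± 0.29 (adjusted p = 7.55e-04) and Dlk1 by 1.41 ± 0.27 (adjusted p = 0.00177). Slc22a18, of the same domain as Cdkn1c and Osbpl5, differed by 0.89 ± 0.23, under 2-fold, and Phlda2 by -0.25 ± 0.31.

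Plagl1 rose from 1.35 and 1.66 to 3.42 and 3.59 (2.00 ± 0.36, adjusted p = 0.00120), with 1.62 to 1.98 on its 3 other probes. Meg3 rose from 2.30 and 2.88 to 4.49 and 4.25 (1.78 ± 0.28, adjusted p = 5.34e-04), but by 0.25 and 0.66 on its other probes. Mirg rose by 1.16 ± 0.33 (adjusted p = 0.0183), lost without J1 replicate 1 (0.166) or 2i replicate 1 (0.112). Meg3 and Mirg thus moved up while Dlk1, a paternally expressed gene of their cluster, moved down. With the mean of its probes Meg3 was not called (0.90, adjusted p = 0.0559), and with normexp Dlk1 was under the fold minimum (-0.98). Which allele was transcribed was not measured. The feeder markers summed to 7.12 and 7.58 in J1 and 6.46 and 6.93 in 2i, and H19 and Igf2 differed by -0.49 ± 0.50 and 0.03 ± 0.56 (adjusted p = 0.498 and 0.974). J1 and J1 in 2i lay on different slides and scan days, so slide and medium cannot be told apart. Of all calls, 46.3% were higher, 35.3% with quantile normalization and 57.2% with scaling on probes well above background.

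**Figure D4:**
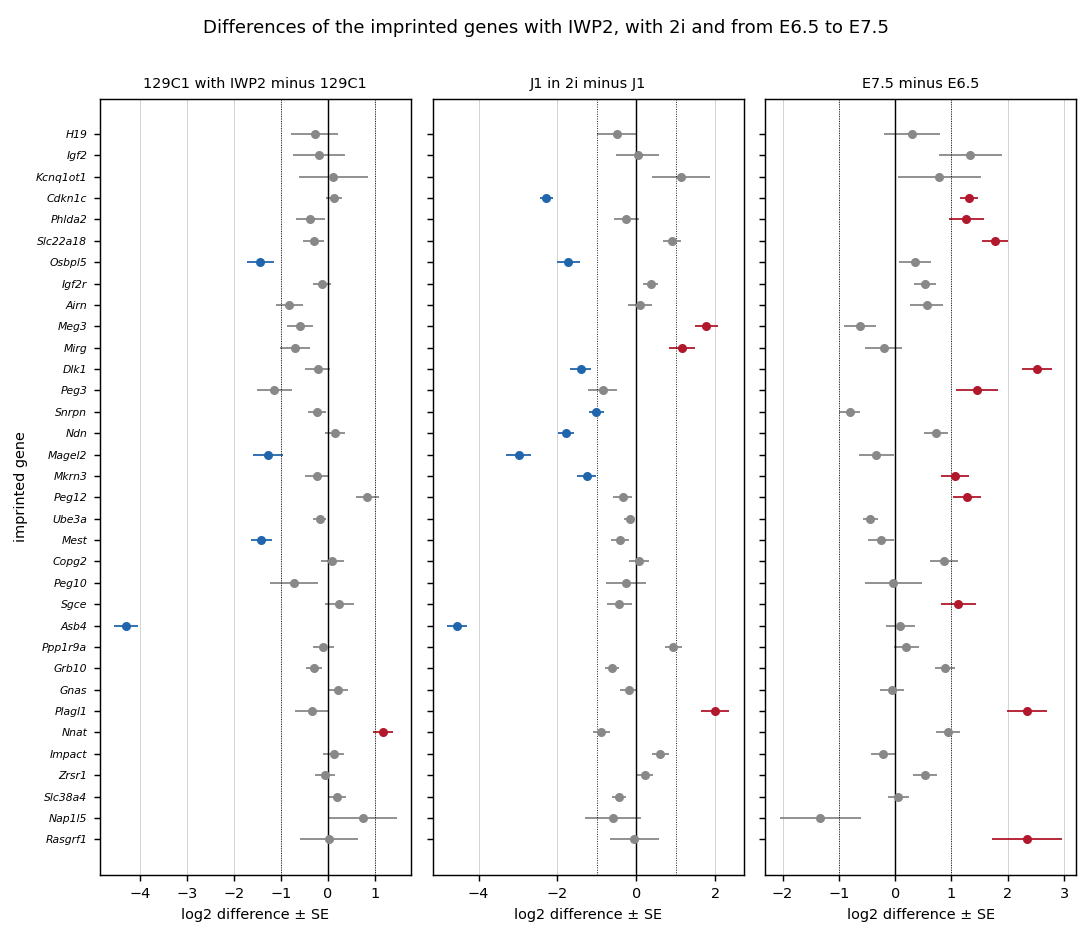
Log2 difference (x axis, point) with its standard error (line) of 34 imprinted genes (y axis) for IWP2, for 2i and for E7.5 against E6.5. Red is called higher, blue called lower and grey not called, with dotted lines at 2-fold. With 2i 8 genes are blue and 3 red, and from E6.5 to E7.5 10 are red. Where a gene is at background on a side the point is the fitted difference, and the text gives a bound.

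The EpiSC lines were then set against embryonic tissue, as the mean of E5.5, E6.5 and E7.5. Of 34 imprinted genes tested, 9 were higher in EpiSCs and 4 lower, where 13.6% of all genes were higher and 7.12% lower. The 4 include Rasgrf1, which entered the test only through E7.5. H19 was 4.49 to 6.73 on the EpiSC arrays and 2.44 to 4.33 on the embryonic arrays (2.08 ± 0.45, adjusted p = 0.00493, and 1.62 to 2.05 on its other probes). Igf2 was -2.64 to 0.50 and -4.06 to -1.22 (2.23 ± 0.51, adjusted p = 0.00645), and the 2 sides overlapped. It was not well above background on 1 of 10 EpiSC arrays and on 2 of 6 embryonic arrays.

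Dlk1 was 0.88 to 2.46 in EpiSCs, -0.48 to -0.04 at E5.5 and E6.5 and 2.53 and 1.84 at E7.5 (1.27 ± 0.27, adjusted p = 0.00433). Plagl1 was higher by 1.62 ± 0.29 (adjusted p = 0.00172), with 1.70, 0.53 and -0.34 on its other probes. The feeder markers summed to 7.77 to 9.34 on the EpiSC arrays and to 3.30 to 4.52 on the embryonic arrays, with 7 to 10 of the 21 well above background on neither array of an embryonic group. Their part in these 4 genes was not tested.

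Osbpl5 was 1.60 to 3.59 in EpiSCs and -0.81 to 0.48 in tissue, with no overlap (2.69 ± 0.33, adjusted p = 2.35e-04). Sgce was higher by 1.89 ± 0.24 (adjusted p = 2.71e-04) and Grb10 by 1.46 ± 0.20 (adjusted p = 4.00e-04), and neither overlapped between EpiSC and embryonic arrays. Slc22a18 was higher by 1.30 ± 0.44 (adjusted p = 0.0342) and Peg10 by 1.14 ± 0.42 (adjusted p = 0.0489). Their calls were lost in 8 and 14 of 21 leave-outs (up to 0.0792 and 0.198).

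Of the genes lower in EpiSCs, Magel2 was -0.86 to 0.78 there and 1.53 to 2.55 in tissue, with no overlap (-2.23 ± 0.23, adjusted p = 9.43e-05). Kcnq1ot1 was -1.02 to 1.16 in tissue and lower in EpiSCs by 3.27 ± 0.80 (-3.27, adjusted p = 0.00840, and -1.41 on its second probe), with 6 of 10 EpiSC arrays well above background, all from the Wnt inhibitor lines. Peg3 was lower by 1.19 ± 0.43 (-1.19, adjusted p = 0.0453, and -0.45 on its second probe), lost in 12 of 21 leave-outs (up to 0.0996). Rasgrf1, a paternally expressed exchange factor of neurons, was well above background at E7.5 only, so it passed the filter through the side where it is high and its call sets background against 1 stage. It was at least 1.08-fold lower in EpiSCs (adjusted p = 0.0143), a call lost without E5.5 replicate 2 through the fold minimum. EpiSCs and tissue lay on different slides. With slide as a random block 9 of the 13 genes were called, without Slc22a18, Peg10, Peg3 and Rasgrf1.

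The mESC lines were compared with E5.5 epiblast, the earliest tissue measured. Single arrays were the replicates here, so p-values do not measure the spread between mESC lines. Arrays were left out in turn, but neither J1 nor R1 was left out as a line. Of 34 imprinted genes tested, 11 were higher in mESCs and 8 lower, where 17.5% of all genes were higher and 14.5% lower. In the Kcnq1ot1 domain, Phlda2 (1.84 ± 0.27), Slc22a18 (1.82 ± 0.20) and Osbpl5 (2.55 ± 0.25) were higher, with adjusted p = 3.84e-05, 2.05e-06 and 7.68e-07. Cdkn1c and Kcnq1ot1 differed by 0.26 ± 0.14 and -0.95 ± 0.64 and did not pass (adjusted p = 0.119 and 0.218). Slc38a4, Dlk1 and Impact were higher with calls that held under each alternative and each leave-out of an array. Slc38a4 was 2.24 to 2.60 on the mESC arrays and 0.14 and -0.46 at E5.5 (2.62 ± 0.16, adjusted p = 4.79e-09). Dlk1 differed by 1.31 ± 0.23 (adjusted p = 2.13e-04) and Impact by 1.68 ± 0.18 (adjusted p = 2.58e-06, and 0.38 on its second probe). The feeder markers summed to 7.12 to 7.71 on the mESC arrays and to 3.30 and 3.45 at E5.5. Their part in the differences between mESCs and E5.5 was not tested.

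Peg12 (1.64 ± 0.21), Zrsr1, a splicing factor gene (1.14 ± 0.19), Igf2 (1.42 ± 0.48) and Peg10 (at least 2.32-fold) were also higher, with adjusted p = 1.35e-05, 1.11e-04, 0.0208 and 0.0279. With normexp all 4 lost their calls, Peg12 (0.86), Zrsr1 (0.81) and Peg10 (0.38) through the fold minimum. Peg12 also lost it with the mean of its probes (0.85) and Zrsr1 with scaling on probes well above background. Igf2 lost its call without E5.5 replicate 1 (0.302), and Peg10 without either array of E5.5, J1 replicate 1 or R1 replicate 2 (0.0605 to 0.141). Plagl1 was higher by 2.22 ± 0.31 (adjusted p = 2.58e-05), but its other probes differed by 2.29, -1.25 and -1.70, so the gene has no single direction here.

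Among the genes lower in mESCs, Meg3 was 2.30 to 2.88 there and 4.63 and 4.65 at E5.5 (-2.07 ± 0.24, adjusted p = 5.22e-06), and its other probes differed by -2.06 and -1.60. Mirg differed by -1.29 ± 0.28 (adjusted p = 0.00134). Magel2 differed by -2.53 ± 0.27 (adjusted p = 1.94e-06) and Snrpn by -1.55 ± 0.16 (adjusted p = 1.62e-06), with -1.65 and -0.16 on the other probes of Snrpn. Grb10 differed by -1.58 ± 0.15 and Gnas by -1.35 ± 0.19 (adjusted p = 4.90e-07 and 2.34e-05). These 6 calls held in each leave-out of an array.

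Asb4 differed by -1.13 ± 0.22 (adjusted p = 5.59e-04) and Peg3 by -1.01 ± 0.32 (adjusted p = 0.0155). With normexp Asb4 differed by -0.23 and was not called (adjusted p = 0.212), and Peg3 differed by -0.69, under the fold minimum. Asb4 fell under the fold minimum without E5.5 replicate 2 or R1 replicate 2. Peg3 lost its call without E5.5 replicate 2 (0.173), J1 replicate 1 or R1 replicate 2. The groups lay on different slides and cannot be told apart from them. E5.5 replicate 2, with the visceral endoderm markers at 6.61 against 3.31, read 4.33 for H19 against 2.99 on replicate 1. H19 differed by -0.05 ± 0.43 between mESCs and E5.5 (adjusted p = 0.930). Among all calls 54.6% were higher, 66.8% with normexp and 46.9% with scaling on probes well above background.

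**Figure D5:**
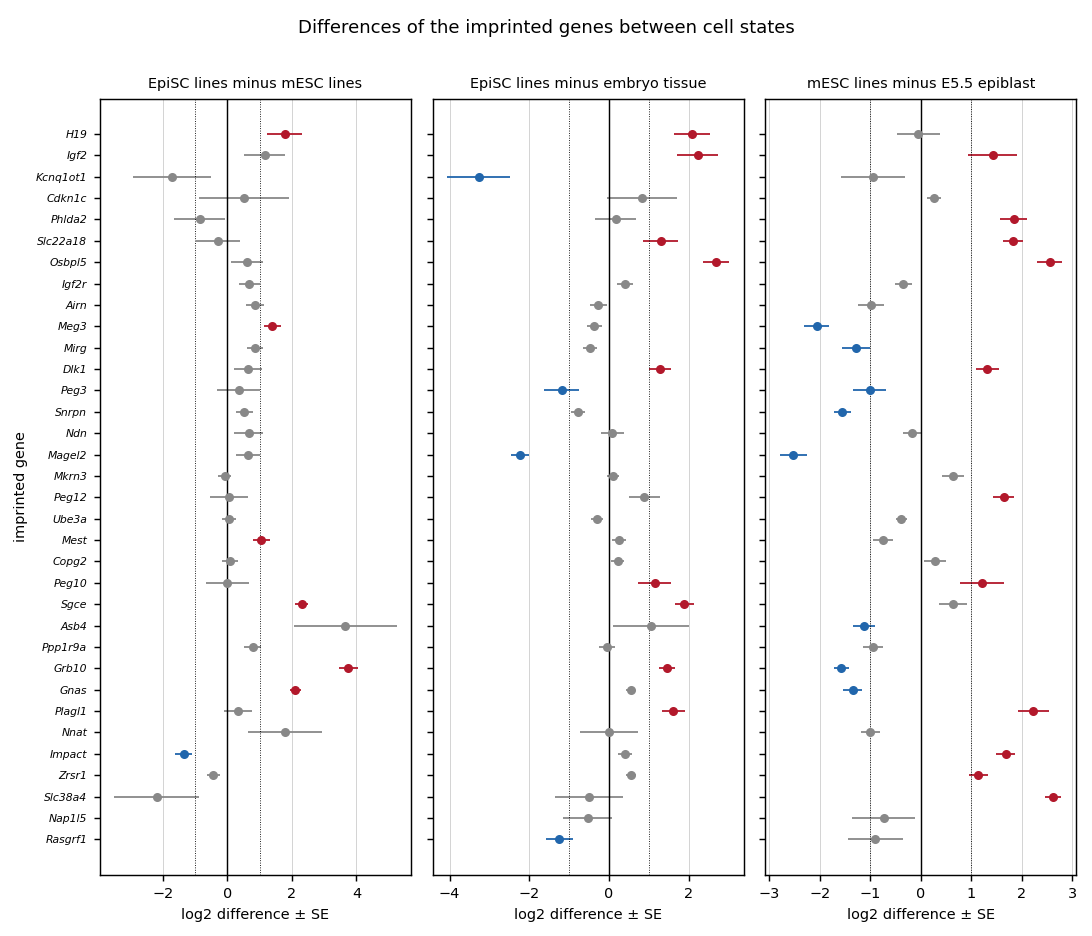
Log2 difference (x axis, point) with its standard error (line) of the imprinted genes (y axis) between EpiSC and mESC lines, EpiSC lines and embryonic tissue, and mESC lines and E5.5 epiblast. Red is called higher, blue called lower and grey not called, with dotted lines at 2-fold. Cdkn1c, Asb4, Nnat and Slc38a4 have the widest lines in the first panel, with standard errors of 1.14 to 1.59. Where a gene is at background on a side the point is the fitted difference, and the text gives a bound.

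The last comparisons followed the embryo. From E5.5 to E6.5, on 1 slide, 2 of 34 imprinted genes rose and 0 fell, where 2.70% of all genes rose and 2.16% fell. Of all calls 55.6% were higher, 46.3% with scaling on probes well above background. Of all genes 734 were called, and 412 and 484 without E6.5 replicate 1 and 2. Slc38a4 rose from 0.14 and -0.46 to 1.22 and 1.18 (1.36 ± 0.18, adjusted p = 3.43e-04). Asb4 rose from -1.20 and -0.87 to 0.93 and 1.34 (2.17 ± 0.26, adjusted p = 1.26e-04), but a second probe differed by -0.53, and the mean of both was not called (adjusted p = 0.138). The summed markers of mesoderm and definitive endoderm were 5.20 to 5.65 at E5.5 and 6.68 to 6.90 at E6.5, and their part in the rise was not tested. Sgce was called only without E5.5 replicate 2 (1.70, adjusted p = 6.41e-04).

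From E6.5 to E7.5, 10 imprinted genes rose (29.4%) and 0 fell, where 6.30% of all genes rose and 8.56% fell. One of the 10, Rasgrf1, passed the filter only through E7.5, where it is high, and so had to differ; 9 rose besides it. The median difference was 0.54 for the imprinted genes and -0.07 for all genes, and 24 of the 34 had values above 0. At an unadjusted p under 0.05 there were 20 in either direction. Snrpn and Ube3a had differences of -0.81 ± 0.19 and -0.44 ± 0.14 (adjusted p = 0.00587 and 0.0256), under 2-fold. Of 12 maternally expressed genes 3 rose, and of 20 paternally expressed genes 7.

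In the Kcnq1ot1 domain, Slc22a18 went from -1.90 and -1.72 to -0.31 and 0.26 (1.78 ± 0.23, adjusted p = 7.19e-05). Cdkn1c went from 1.42 and 1.69 to 2.85 and 2.88 (1.31 ± 0.16, adjusted p = 5.16e-05). Phlda2 rose by 1.26 ± 0.31 (adjusted p = 0.00767), lost without E6.5 replicate 1 (0.104) or E7.5 replicate 2 (0.0934). Dlk1 had the largest rise, from -0.48 and -0.19 to 2.53 and 1.84 (2.52 ± 0.27, adjusted p = 1.33e-05, and 2.60 on its second probe). Plagl1 rose from -0.51 and -0.53 to 2.01 and 1.62 (2.34 ± 0.36, adjusted p = 3.17e-04), with 2.94, -0.04 and -1.06 on its other probes, so again the probes did not move one way.

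Peg12 rose by 1.27 ± 0.25 (adjusted p = 0.00177, and 0.66 on a second probe). Its difference was under 2-fold with normexp (0.89) and with the mean of its probes (0.97). With normexp Mkrn3 (0.74), Sgce (0.93), Rasgrf1 (0.78) and Phlda2 (0.97) were also under 2-fold. Peg3 rose by 1.45 ± 0.37 (adjusted p = 0.0104, and 1.89 on a second probe), a call lost without either array of E6.5 or E7.5 replicate 1 (0.0511 to 0.0603). Sgce rose by 1.12 ± 0.31 (adjusted p = 0.0158), lost without E6.5 replicate 1 (0.134) or E7.5 replicate 1 (0.0905). Mkrn3 rose by 1.06 ± 0.25 (adjusted p = 0.00579, and 0.22 on a second probe), lost without E6.5 replicate 2 (0.0869). Rasgrf1 was -2.24 and -2.25 at E7.5 and not well above background at E6.5, at least 3.85-fold higher (adjusted p = 0.0124), a call lost in 3 of 4 leave-outs (0.0510 to 0.0979).

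E7.5 lay on another slide than E6.5, so slide and stage cannot be told apart. The visceral endoderm markers summed to 4.36 and 4.95 at E6.5, with 11 of 11 well above background on both arrays, and to 1.51 and 1.66 at E7.5, with 4 of 11. The feeder list, which holds genes of mesenchyme, summed to 3.57 and 3.50 at E6.5 and 4.52 and 4.34 at E7.5. The part of either in these rises was not tested. Of all calls 42.4% were higher, 53.6% with scaling on probes well above background.

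Other gene lists were read in the same way. Of 26 genes that maintain imprints or set DNA methylation, 4 of 26 tested were called among the EpiSC lines (15.4%), where 28.9% of all genes were. They were Dnmt3b, an enzyme that adds new methylation, Dnmt3l, and Tet1 and Tet2, which oxidise methylation. Zfp57, which protects imprints, had a range of 0.80 between the lines (adjusted p = 0.0233), under 2-fold. Of the 26, 0 of 24 tested were called between the Wnt inhibitor and the original-protocol lines, where limma called 1.57% of all genes. Between EpiSC and mESC lines 8 of 26 were called (30.8%, of all genes 25.1%). One was higher, Dnmt3a (1.64), and 7 were lower (Dnmt3l by -8.49, Dppa3 by -7.20, Tet2 by -3.12, Ctcfl, at background in EpiSCs, at least 3.39-fold, Eed by -2.15, Tet1 by -1.87 and Arid4a by -1.02). Dppa3 and Ctcfl passed the filter there only through the mESC lines, where they are high. Against embryonic tissue 5 of 25 were called (20.0%, of all genes 20.8%), where Tet2 was higher in EpiSCs (1.37) and Dnmt3l, Dppa3, Dnmt3b and Arid4b were lower (-4.47, -2.66, -1.68 and -1.12). Dppa3 passed the filter there only through the tissue. With 2i Dnmt3b fell by 1.33, the only call of 26 (3.85%), where 13% of all genes were called. With IWP2 the 1 call, Ctcfl, was at background in both groups and is no measured change. The test with limma called 0 of 26 between R1 and J1 and between 129Ba2 and 129Ba1, where it called 80 and 180 of all genes. From E5.5 to E6.5 Dnmt3l fell by 2.85, and Ctcfl was at least 1.95-fold lower at E6.5, where it was at background. From E6.5 to E7.5 Dnmt3l fell by 2.78, Zfp57 by 1.56, and Tet2 rose by 1.01.

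Between mESC lines and E5.5, 12 of these 26 genes were called (46.2%, of all genes 32.0%), 5 higher and 7 lower. Tet2 (4.62), Dppa3 (2.88), Eed (1.44), Ctcfl (1.33) and Dnmt3l (1.20) were higher in mESCs. Dnmt3b (-2.23), Dnmt3a (-1.40), Atrx (-1.36), Smchd1 (-1.20), Zfp445 (-1.12), Tet3 (-1.07) and Arid4b (-1.07) were lower. Dnmt3a and Dnmt3b, the enzymes that add new methylation, were thus both higher at E5.5, and Zfp445, like Zfp57, protects imprints.

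Of 43 other genes reported as imprinted in some tissue, 34 were tested among the EpiSC lines and 13 called (38.2%, of all genes 28.9%). The widest ranges were those of Tfpi2, a protease inhibitor well above background on 6 of 10 arrays, with 4.67 (adjusted p = 4.95e-04), and of Dcn, a proteoglycan of fibroblasts, with 3.63 (adjusted p = 1.57e-05). Ascl2, a trophoblast factor, followed with 2.76, and Calcr, the calcitonin receptor beside Peg10, with 2.32. Htr2a, a serotonin receptor, was called with 3 of 10 arrays well above background. Sfmbt2, Pon3, Peg13, Ddc, Th, Jade1, Qpct and Nap1l4 had ranges from 1.78 down to 1.00. Htr2a was also the 1 gene of the list called between 129Ba2 and 129Ba1, at least 1.87-fold lower in 129Ba2, where it was at background.

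In the Wnt inhibitor lines Ascl2, which lies beside the Kcnq1ot1 domain, was lower by 2.32 (-2.32, adjusted p = 0.0245) and Sfmbt2, a Polycomb gene, by 1.62 (-1.62, adjusted p = 0.0325). These were 2 of 29 tested (6.90%, of all genes 1.57%). With IWP2 5 of 34 were called (14.7%, of all genes 3.88%). Ascl2 fell by 1.93 and Ddc by 1.45, and Dcn rose by 1.35. Qpct, at background after IWP2, was at least 2.44-fold lower, and Tfpi2, at background before it, at least 2.51-fold higher. Ascl2 was thus called in both comparisons, which share the 129C1 arrays.

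Between EpiSC and mESC lines 12 of 30 were called (40.0%, of all genes 25.1%). Calcr (4.28), Peg13 (1.61), Dhcr7 (1.38), Inpp5f (1.05) and Casd1 (1.04) were higher in EpiSCs. Gab1 (-5.06), Sfmbt2 (-3.55), Jade1 (-2.90), Dio3 (-2.66), Ddc (-2.28), Qpct (-1.80) and Tspan32 (-1.58) were lower. With 2i 7 of 34 were called (20.6%, of all genes 13%). Ins2 rose by 1.26, and Dcn fell by 1.11, Nap1l4 by 1.07 and Atp10a by 1.07. Zim3, at background in J1, was at least 4.04-fold higher. Calcr and Pon2, at background in 2i, were at least 3.81-fold and 3.14-fold lower.

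Against embryonic tissue 12 of 34 were called (35.3%, of all genes 20.8%). Dcn (5.48), Pon3 (3.65), Calcr (3.10), Pon2 (2.16), Dhcr7 (1.36) and Inpp5f (1.31) were higher in EpiSCs, and Zim3 was lower (-2.13). Qpct, Tfpi2 and Htr2a were at background on all embryonic arrays and at least 2.39-fold, 2.13-fold and 1.01-fold higher in EpiSCs. Dlx5 and Kcnk9 were at background on all EpiSC arrays and at least 2.45-fold and 1.15-fold lower there. The genes at background on a side, and Pon3 and Zim3, passed the filter only through the side where they are high. The feeder markers given above differed in the direction of Dcn, and their part was not tested.

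Between mESCs and E5.5 20 of 34 were called (58.8%, of all genes 32.0%), 13 higher and 7 lower. These include Htr2a, at background in both groups, and Dlx5, above it on 1 array of E5.5 only. Qpct, Pon3 and Pon2 were at background at E5.5 and at least 8.2-fold, 10.4-fold and 3.85-fold higher in mESCs. Zim3 and Kcnk9 were at background in mESCs and at least 4.71-fold and 1.49-fold lower. From E5.5 to E6.5 5 of 34 were called (14.7%, of all genes 4.86%). Begain rose by 1.19, Ascl2 fell by 1.45, Dcn by 1.36 and Ddc by 1.00, and Pon2, at background at E5.5, was at least 1.60-fold higher at E6.5.

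From E6.5 to E7.5 9 of 34 were called (26.5%, of all genes 14.9%), of which Htr2a was at background at both stages. Dlx5, a homeobox gene, rose by 3.17 and Begain by 1.29, and Sfmbt2 fell by 1.91, Atp10a by 1.51 and Tspan32 by 1.49. Zim3, Dcn and Kcnk9, at background at E7.5, were at least 3.67-fold, 3.64-fold and 1.73-fold lower there.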

How the data were processed

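Total RNA of 24 samples, labelled with Cy3, was hybridised to one-colour Agilent arrays with 62976 spots. The intensity files were deposited as written by Agilent Feature Extraction 10.5.1.1, per the submitters' processing notes, and their processed signal is background-subtracted, per the file headers. The deposited log2 table held the same arrays (r at least 0.999991 with each array's own signal, column medians -0.35 to 0.78, so its centring stays unknown) and served as an alternative. The genome build and annotation of the array are not given in the sources used here.

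Each array's log2 processed signal was set relative to its 75th percentile over probes. Control spots and 168 probes with an outlier flag were left out. Probes were named through accessions in the RefSeq table (27235) or by symbol (13), and 28433 stayed unnamed. One probe stood for each gene. A gene was tested where all arrays of some group in the fit were well above background. Tests used limma 3.58.1 (R 4.3.3), with Benjamini-Hochberg adjustment over the whole table. A call needed an adjusted p below 0.05 and a 2-fold difference. Comparisons between kinds of line used line means. The comparison with embryonic tissue set EpiSC line means beside single embryonic arrays, grouped by stage, in the same fit. The others used a fit over all 12 groups. The named genes are all listed imprinted genes that were called in a comparison, members of their clusters set beside them, the called genes of the 2 further lists (by range or leading genes where many), and Pou5f1, Zfp42 and Fgf5 as label checks. The members and gene lists were chosen with earlier results of these data known. The scripts were tested on simulated data.

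Among the alternatives, normexp used the median signal, since no mean signal column was in the files. A constant was added to each of its values before logs were taken. The other alternatives were quantile normalization, the deposited log2 values, scaling on probes well above background everywhere and averaging a gene's probes. Further ones were dropping the filter on dim probes or the fold minimum, the slide, a replicate block and leaving out each array or line. Replicate numbers did not pair samples: over 66 pairs of groups the correlation of deviations was -0.344 to 0.424, with 17 above 0.1. The number of arrays limits the precision.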

Additional observations from a re-analysis of the deposited data

Results flagged for a closer look

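Among the 5 untreated EpiSC lines, 1 line lay far from the other 4 in 3 of 33 imprinted genes examined (9.09%) and in 837 of 14532 genes (5.76%). Such a gap arises by chance in about 1 in 20 genes. Cdkn1c had a mean level of -0.84 in Wt1, where the nearest line was at 3.54, a gap of 0.797 of the whole range. Slc38a4 was -3.54 in Wt1, where the nearest line was at 1.14, a gap of 0.974 of the range. Grb10 was 4.22 in 129C1, where the nearest line was at 3.46, a gap of 0.733 of the range. Over all genes the line apart was Wt1 in 402, BNa17 in 156, 129C1 in 141, 129Ba1 in 116 and 129Ba2 in 22. Wt1 was the only 1 of the 5 on its slide. That slide also held 129C1 with IWP2, where the mean of Cdkn1c was 3.67 and that of Slc38a4 was 1.46. The part of the slide was not tested.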

How the results depend on the processing

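Of 91 calls of imprinted genes over 10 comparisons, 44 held under every alternative and leave-out run, and no called difference of an imprinted gene changed sign in these. Single other probes of the called genes were less uniform. Of 54 such readings, 47 had the same sign as the call and 7 the opposite sign. The balance of calls over all genes did turn. With scaling on probes well above background the share that was higher went from 46.3% to 57.2% (2i), 54.6% to 46.9% (mESC and E5.5), 55.6% to 46.3% (E6.5) and 42.4% to 53.6% (E7.5), and with normexp from 51.5% to 38.3% (EpiSC and mESC). With normexp the imprinted genes called went from 3 to 5 between Wnt inhibitor and original-protocol lines, 5 to 3 with IWP2, 11 to 7 with 2i, 1 to 0 between R1 and J1, 0 to 1 between 129Ba2 and 129Ba1, and 10 to 5 from E6.5 to E7.5. All genes called went from 4356 to 2431 among EpiSC lines, 3619 to 1958 (EpiSC and mESC), 3063 to 1269 (EpiSC and embryo), 585 to 272 (IWP2), 1968 to 613 (2i), 80 to 37 (R1 and J1), 4831 to 2201 (mESC and E5.5), 734 to 299 (E6.5) and 2243 to 866 (E7.5). The mean of all probes gave 4, 0 and 1 imprinted genes for EpiSC and mESC, R1 and J1, and E6.5. Quantile normalization gave 1 for the kinds of EpiSC line and 1 for 129Ba2 and 129Ba1. Without the filter the kinds of line gave 1 imprinted gene and 135 genes, and 129Ba2 and 129Ba1 54 genes. The lines of 1 slide alone gave 1 imprinted gene for the kinds of line and 2892 of all genes among lines. With no fold minimum, all genes numbered 6706 among lines, 6960 (embryo), 3960 (2i), 8450 (mESC and E5.5), 1346 (E6.5) and 4142 (E7.5), and imprinted genes 2 (R1 and J1), 5 (E6.5) and 16 (E7.5). Leaving out an array or line gave 15 to 22 imprinted genes and 2892 to 6540 of all genes among lines, 3 to 9 and 1943 to 3718 (EpiSC and mESC), 1 to 4 and 40 to 622 (kinds of line), 1 and 118 to 218 (R1 and J1), 0 to 2 and 17 to 521 (129Ba2 and 129Ba1), and 2 to 3 and 412 to 798 (E6.5). With the replicate block, which the pairing check does not call for, imprinted genes called numbered 20, 5, 11, 1, 0, 19, 2 and 10, as without it, and all genes 4352, 572, 1978, 71, 157, 4835, 723 and 2234 (lines, IWP2, 2i, R1, 129Ba2, mESC and E5.5, E6.5, E7.5). Normexp on the mean signal and a random slide block over the 12 groups were not run, since the files hold no mean signal column and the block could not be fitted. Where a gene was at background on 1 side, depth of signal allows only a bound.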
